A study of Mus musculus with 4 samples.

Results

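The 10 hepatic uptake and efflux transporters described here are Slco1a1, Slco1a4, Slco1b2, Slco2b1, Slc10a1, Slc22a7, Abcb11, Abcc2, Abcc3 and Abcc4. Their probes were found by gene name, with no measured value in the rule, on 4 mouse liver microarrays, and the set of genes was proposed with earlier results of these data known. The 10 genes were among 37074 gene names on the array and were represented by 15 of its 56605 probes. Every one of them was on the array.

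Liver RNA came from C57BL/6 wild-type mice that were injected intraperitoneally with aristolochic acid type I (AAI), a plant nephrotoxin, or with corn oil, its vehicle, on 5 days of each of 3 weeks. The AAI dose was 5 mg/kg/day in females and 2 mg/kg/day in males, and each sex had its own corn oil group, called control here. The labels give an age of 6 weeks for all 4 groups. RNA from 5 mice was pooled for each group and hybridized to 1 array, so there was no replicate error, no test and no SD between mice. Sex and dose cannot be told apart between the AAI pools.

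Hepatocytes take up bile acids, hormone conjugates and drugs from sinusoidal blood through organic anion transporting polypeptides (the Slco genes), the sodium taurocholate cotransporter (Slc10a1) and organic anion transporters (the Slc22a genes). Products then leave across the canalicular membrane into bile through Abcb11 and Abcc2, or return to blood across the basolateral membrane through Abcc3 and Abcc4. In mouse liver, Slco1a1 is known as a male-predominant and Slco1a4 as a female-predominant transporter. Bile acids and xenobiotics act on several of these genes through nuclear receptors.

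Values are log2 signals after quantile normalization, a ratio is a difference of 2 such signals, and a gene is represented by its brightest probe, the probe with the highest mean signal. Each probe was compared only with itself across arrays, since the level of one probe cannot be set against that of another. As the only measure of error, where a gene had several probes, the SD of their log2 ratios had a median of 0.25 for AAI over corn oil in females (9128 genes), 0.24 in males (8618 genes) and 0.23 for females over males under corn oil (8893 genes). This error is technical. A gene was counted as higher or lower at a 2-fold difference. The comparison of the control sexes shares a control array with each AAI comparison.

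The pools differed in tissue markers. The 7 hepatocyte markers were above background on every array, with a log2 summed signal between 20.59 and 20.71. Alb and Serpina1a, with log2 signals from 19.04 to 19.19, made up most of this sum. Quantile normalization leaves such high signals little room to differ, so the sum does not measure the hepatocyte share. Ratios of the 7 markers ran from -0.42 (Hnf4a) to 0.75 (Cps1) in females and from -0.43 (Apoa1) to 0.30 (Tat) in males. All 5 skeletal muscle markers were at least 2-fold higher with AAI in both sexes, and their log2 summed signal was 7.27 in control and 14.10 in AAI females, and 10.81 and 17.04 in males. In males, 3 of 4 adrenal markers (log2 sum 11.80 and 14.17) and 3 of 4 fat markers (9.30 and 13.89) were also higher with AAI, against 0 of 4 adrenal markers and 1 of 3 measured fat markers in females. The fat marker Plin1 went the other way, with log2 ratios of -0.67 in females and -0.72 in males. In females the log2 sum of the fat markers was 8.20 (control) and 8.10 (AAI). Of the muscle list Myh1, and of the fat list Adipoq and Ucp1, were not well above background in control females, and Ucp1 was not in AAI females either. Of 4 Kupffer cell markers, 3 in females and 1 in males were at least 2-fold lower, and their log2 sum was 15.97 (control) and 14.90 (AAI) for females, and 15.86 and 15.15 for males. Of the cholangiocyte markers, 1 of 7 in females was at least 2-fold lower (Krt19, log2 ratio -1.20) and 2 of 6 measured in males were higher (Krt19, 1.26, and Sctr, 1.96), with log2 sums between 10.78 and 11.31. Epcam was not well above background in either male pool. The part of these other tissues and cell types in the ratios given here was not tested, and with 1 array per group no pool could be left out. In bulk RNA, fewer cells of a type and less RNA per cell cannot be told apart.

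Probe sequences are shown for the genes on which the results turn or whose probes differ in what they can detect: the large differences of Slco1a1, the opposite directions of Abcb11, and the unlike probes of Slc10a1. For each, 30 bases of the 60-base probe are given as the file gives them, with the probe's position on mouse genome build mm9. No mm9 gene models were used here to place a probe in an exon or a UTR.
Slco1a1, brightest probe, chr6:141856493-141856552, minus strand: tactttcttatactcaggatgcctctgact
Slco1a1, further probe, chr6:141857328-141857387, minus strand: atcatgagagatatagtaggaatccttatc
Abcb11, chr2:69076390-69076449, minus strand: atgtcccttactcctaggaaatctatgcaa
Slc10a1, brightest probe, chr12:82056539-82056598, minus strand: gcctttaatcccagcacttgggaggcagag
Slc10a1, further probe, chr12:82054180-82054239, minus strand: tgttgtaactcaaaaggaaataaactacaa
The brightest Slc10a1 probe carries letters of the B1 short interspersed repeat of mice. The file lists for it RefSeq transcripts of 4 genes, which are Slc10a1, 4930402H24Rik, Med16 and Spc24. It was the only member probe with transcripts of more than 1 gene, and the only one to share 20 bases with a probe of another gene (1 probe) or with promoters of other genes (3 of 32851). Slc10a1 is therefore described below by the further probe as well.

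Among the members, 1 of 10 was at least 2-fold lower with AAI in females (Slco1a1) and 2 of 10 in males (Slco1a1 and Slc22a7), and 0 of 10 were at least 2-fold higher in either sex. Over all genes tested, 3.09% were lower and 1.37% higher in females, and 4.59% were lower and 3.51% higher in males. Lower genes made up 69.3% of those past 2-fold in females, and 54.5% where arrays were scaled to their 75th percentile instead. In numbers this small, 1 or 2 genes set the share, and nothing is read from it about the transporters as a list. The median log2 ratio of the 10 members was -0.07 in females and -0.17 in males, against 0.04 and 0.02 over all genes above background on both arrays. Ratios exceeded the SD between probes for 6 members in females and 8 in males, which compares with 16086 of 29714 and 15616 of 28433 genes.

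**Figure D1:**
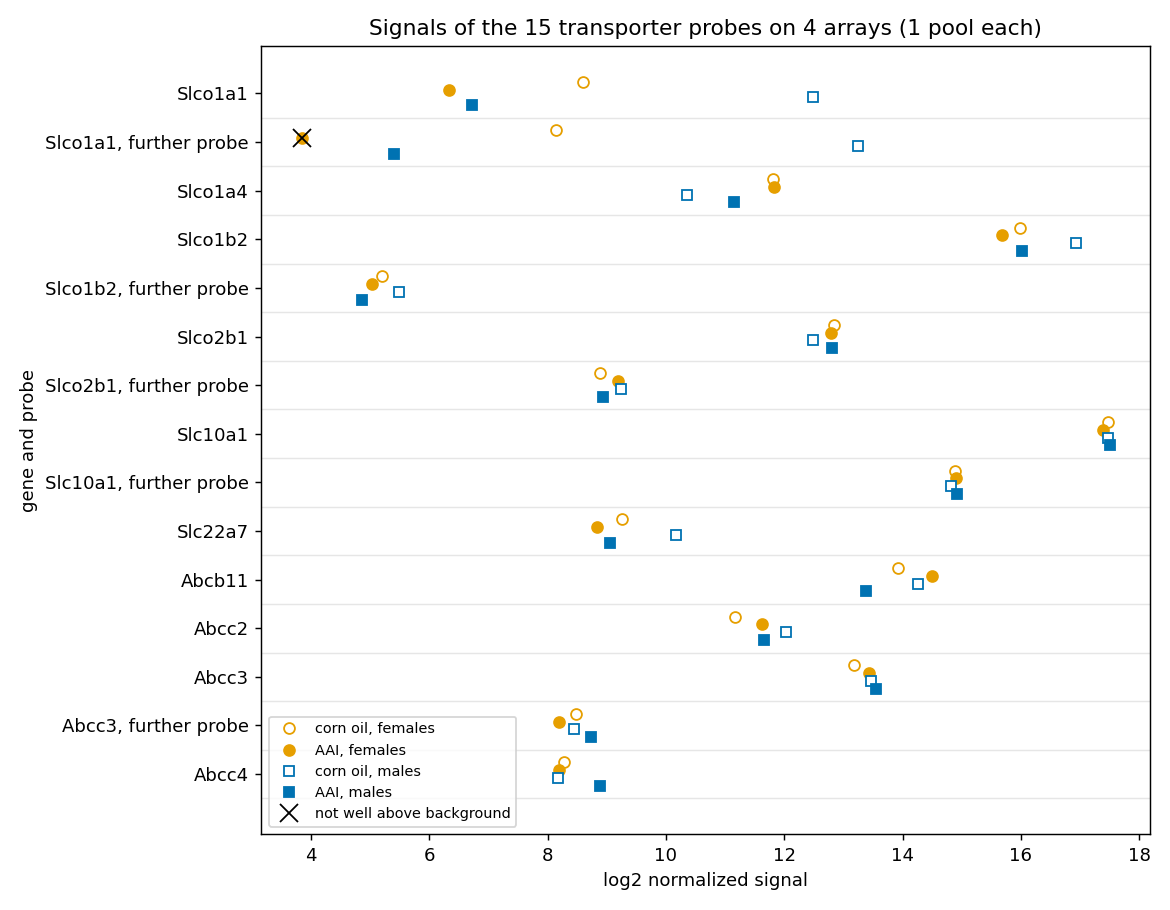
Log2 normalized signals (x axis) of the 15 transporter probes (y axis) on the 4 arrays, 1 pooled array per group, with open symbols for corn oil and filled symbols for AAI. Slco1a1 shows the widest spread, from 6.34 to 12.49 on its brightest probe, and its further probe was not well above background in AAI females.

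Slco1a1 (NM_013797) encodes an uptake transporter for sulfated and glucuronidated steroids and bile acids. Its brightest probe gave a log2 signal of 8.60 in control and 6.34 in AAI females, and of 12.49 in control and 6.71 in AAI males. The signal was far higher in control males than in any other pool, and the AAI pools of both sexes lay below either control. The ratios corresponded to a 4.79-fold lower signal with AAI in females and a 54.8-fold lower signal in males. In females the ratio was the 57th lowest of 29714 genes above background on both arrays. The further probe gave 8.14, 3.84, 13.25 and 5.40 in the same order of arrays, and was not well above background in AAI females. By this probe the signal was at least 19.6-fold lower in AAI females and 231-fold lower in AAI males. Both probes thus had the same direction in both sexes and differed in size, and under 9 other processing choices the log2 ratio of the gene lay between -3.28 and -1.49 in females and between -6.82 and -4.87 in males.

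The genes with the profile most like that of Slco1a1 were sought by the distance between log2 signals over the 4 arrays, each gene centered on its own mean, among 30529 genes. The nearest 3 of these carried no gene symbol. They were a transcribed region of chromosome 8, at a log2 distance of 0.85, a transcribed region of chromosome 17 at 1.07 and the transcript AV482902 at 1.21. For the first of them the log2 ratio was -1.47 in females and -4.94 in males, and for AV482902 it was -2.75 and -4.20. The second was near background in AAI pools, and its ratios are bounds.

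Slco1a4 (NM_030687, chr6:141754675-141754734), which transports bile acids, digoxin and other bulky organic compounds, gave 11.82 in both female pools, and 10.36 in control and 11.14 in AAI males. Levels in both female pools lay above both male pools. The log2 ratio with AAI was 0.00 in females, with a sign that changed with the processing, and 0.79 in males, a 1.72-fold higher signal in AAI males. The male ratio exceeded the SD between probes and did not reach 2-fold.

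Slco1b2 (NM_020495, chr6:141634476-141634535) is the mouse counterpart of the human liver OATP1B transporters and takes up bilirubin conjugates, bile acids and statins. Its signal was 15.98 in control and 15.67 in AAI females, 16.92 in control males and 16.02 in AAI males. Control males again had the highest of the 4 values, and the other pools lay closer together. The signal was 1.24-fold lower with AAI in females and 1.88-fold lower in males. Over the other processing choices the log2 ratio lay between -0.31 and -0.15 in females and between -0.91 and -0.71 in males. The female ratio was thus smaller than the SD between probes under some choices. A further probe, for which the file lists no RefSeq transcript, gave log2 ratios of -0.17 and -0.63, of the same sign in each sex. This probe was dim, with log2 signals from 4.85 to 5.49, and its female ratio was smaller than the SD.

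Slco2b1 (NM_175316, chr7:106807008-106807067), a transporter of sulfated steroids and many drugs, had nearly the same signal in all pools, namely 12.85 (control) and 12.79 (AAI) for females, and 12.49 and 12.80 for males. The female ratio of -0.06 was smaller than the SD between probes, and the male ratio of 0.31 exceeded it. Another probe under this name lies on the opposite strand (chr7:106815871-106815930, plus strand) and gave ratios of 0.32 in females and -0.31 in males. No RefSeq transcript is listed for that probe, so it may not measure the transcript of the gene. Its sign was opposite to that of the brightest probe in each sex, and no direction is given for Slco2b1.

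Slc10a1 encodes the sodium-dependent taurocholate cotransporter (NTCP), the main route of conjugated bile acids into hepatocytes. Its probe with a single listed gene (NM_001177561) gave 14.89 (control) and 14.90 (AAI) for females, and 14.82 and 14.92 for males. The 4 values lay within less than the SD between probes of each other, and the log2 ratios were 0.00 in females and 0.10 in males. The probe with repeat letters (NM_011387) gave 17.48, 17.38, 17.47 and 17.50. Only 165 probes were brighter, where quantile normalization leaves little room to differ. By quantile normalized signals, no difference in Slc10a1 exceeded the SD between probes. Where arrays were scaled to the 75th percentile instead, the probe with repeat letters gave log2 ratios past this SD. They were 0.26 in males and 0.24 for females over males under corn oil. With 1 array per group, there is no interval for any of these values.

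Slc22a7 (NM_144856, chr17:46569272-46569331), an organic anion transporter of the sinusoidal membrane, gave 9.26 in control and 8.83 in AAI females, and 10.16 and 9.05 in males. As with Slco1a1 and Slco1b2, the control males had the highest signal. It was 1.34-fold lower with AAI in females and 2.16-fold lower in males, just past 2-fold. Over the other processing choices its male log2 ratio lay between -1.14 and -1.01, past 2-fold in each, and a 3-fold limit left Slco1a1 as the one member called in males. The mean over probes and the filters on background could not change it, since Slc22a7 has no further probe and was always above background.

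**Figure D2:**
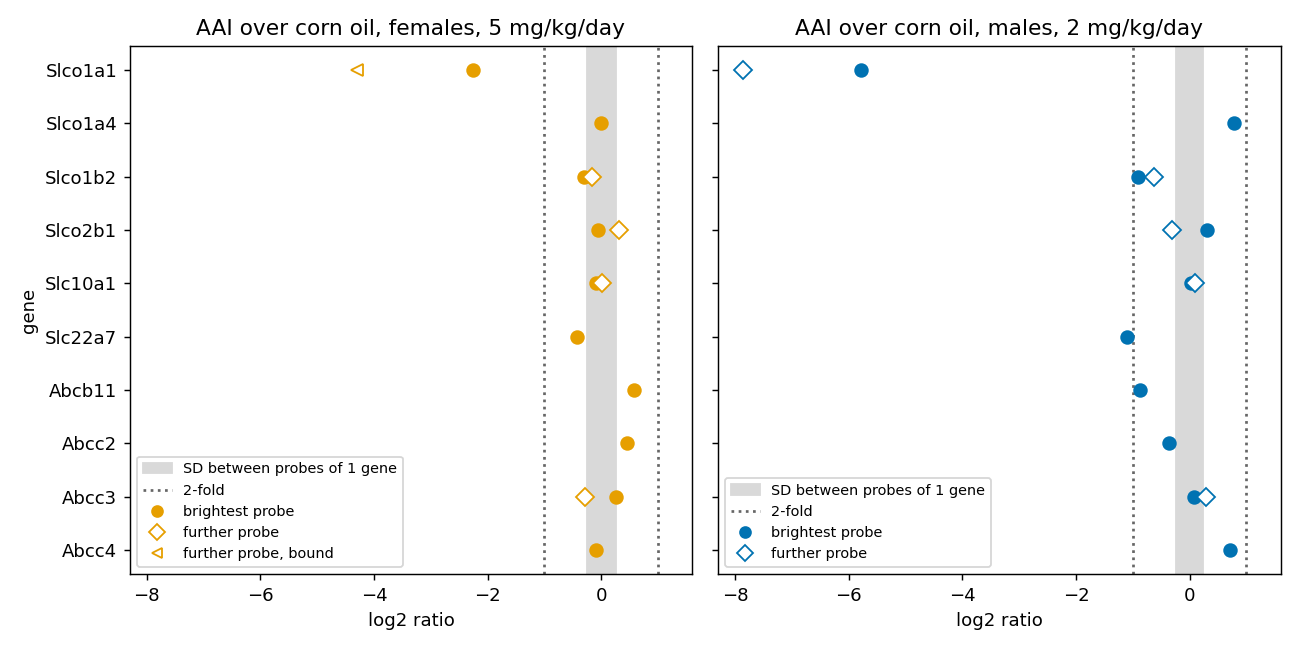
Log2 ratios of AAI over corn oil (x axis) for the 10 transporters (y axis) in females and males, with filled circles for the brightest probe, open symbols for further probes, a gray band of 1 median SD between probes of 1 gene on each side of 0 (0.25 and 0.24) and dotted lines at 2-fold. Slco1a1 lies beyond 2-fold in both sexes and Slc22a7, at -1.11, in males, while Abcb11 and Abcc2 lie on opposite sides of 0 in the sexes.

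The 2 canalicular efflux pumps among the 10 members both had opposite directions in the sexes. Exporters among the other transporter genes compared below differed in this. In females and males, Abcg2 had ratios of 0.82 and -1.06, and Abcb4 had 0.05 and -0.60. Abcg5 (0.40 and 0.66), Abcg8 (0.47 and 0.77) and Abcb1a (0.74 and 0.93) were positive in both sexes. Abcb11 (NM_021022) encodes the bile salt export pump, the rate-limiting step of bile acid secretion. It gave 13.93 in control and 14.50 in AAI females, and 14.26 in control and 13.38 in AAI males. AAI females had the highest signal of the 4 pools and AAI males the lowest. The signal was 1.48-fold higher with AAI in females and 1.84-fold lower in males, both beyond the SD between probes and below 2-fold. The signs held under all 9 other choices tried, with log2 ratios from 0.50 to 0.61 in females and from -0.88 to -0.73 in males. The ratios moved only with scaling to the 75th percentile, the normexp correction, no trend correction and the authors' values. The other choices left them unchanged, since Abcb11 has no further probe, was above background on every array and had no replaced spot.

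Abcc2 (NM_013806, chr19:43912079-43912138), a canalicular pump for glutathione and glucuronide conjugates such as conjugated bilirubin, gave 11.17 (control) and 11.62 (AAI) for females, and 12.03 and 11.66 for males. The AAI pools of both sexes lay between the control pools, with almost equal signals. Its log2 ratio, 0.45 in females but -0.37 in males, exceeded the SD between probes each time. Whether the ratios of Abcb11 or Abcc2 differ between the sexes was not tested. A higher signal in females with a lower one in males, both beyond the SD between probes, was seen in these 2 of 10 members, in 7 of 35 other transporter genes and in 5.45% of 28234 genes above background on every array. The reverse was seen in 0 members, 1 other transporter and 4.74% of all genes.

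At the basolateral membrane, Abcc3 (NM_029600, chr11:94204612-94204671) exports glucuronides and bile acids to blood. It gave 13.19 (control) and 13.44 (AAI) for females, and 13.47 and 13.55 for males, so that control females had a slightly lower signal than the other pools. The log2 ratio was 0.25 in females, close to the SD between probes, and 0.09 in males. A further probe (chr11:94225685-94225744) gave -0.29 and 0.29, of the opposite sign in females, and no direction is given for the females.

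Abcc4 (NM_001033336, chr14:118882104-118882163) exports bile acids together with glutathione, cyclic nucleotides and conjugated steroids. Its signals were 8.28 and 8.19 in females and 8.17 in control males, against 8.88 in AAI males. This last pool stood above the rest, which were nearly equal. The signal was 1.64-fold higher with AAI in males, and the female log2 ratio of -0.09 was smaller than the SD between probes.

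Under corn oil alone, 1 of 10 members was at least 2-fold lower in females than in males (Slco1a1) and 1 of 10 at least 2-fold higher (Slco1a4), against 3.83% and 1.86% of all genes tested. Slco1a1 was 14.9-fold lower in control females than in control males by its brightest probe and 34.6-fold lower by the further probe, both of them above background. Slco1a4 was 2.75-fold higher in females. Below 2-fold, Slco1b2, Slc22a7 and Abcc2 had log2 differences (females minus males) of -0.94, -0.91 and -0.87. For Slc10a1 the difference was 0.01, and 0.08 by the probe with a single listed gene. The median over the members was -0.31, against 0.02 over all genes.

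In the AAI pools, the female minus male difference of Slco1a1 was -0.38 by its brightest probe, where it had been -3.89 under corn oil. By the further probe the difference was -5.11 under corn oil, and in the AAI pools the signal was at least 2.93-fold lower in females, a bound since it was not well above background there. The probes thus disagreed on how near the sexes lay in the AAI pools. For Slco1a4 the difference was 0.68 in place of 1.46, for Slco1b2 -0.34 in place of -0.94, for Slc22a7 -0.22 in place of -0.91 and for Abcc2 -0.05 in place of -0.87. By brightest probes, the sexes lay closer together in these 5 genes in the AAI pools. Abcb11 and Abcc4 lay further apart, with differences of 1.11 (from -0.33) and -0.69 (from 0.10). Where arrays were scaled to the 75th percentile, the corn oil difference was -0.08 for Abcb11, -0.69 for Slco1b2 and 0.24 for Slc10a1. In all, the difference by brightest probes was smaller in the AAI pools for 7 of 10 members, against 50.0% of 28234 genes above background on every array. Of the genes at least 2-fold apart under corn oil, it was smaller for both members and for 92.6% of 1330 genes, so that Slco1a1 and Slco1a4 did as most such genes did. The AAI females and males had received different doses.

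**Figure D3:**
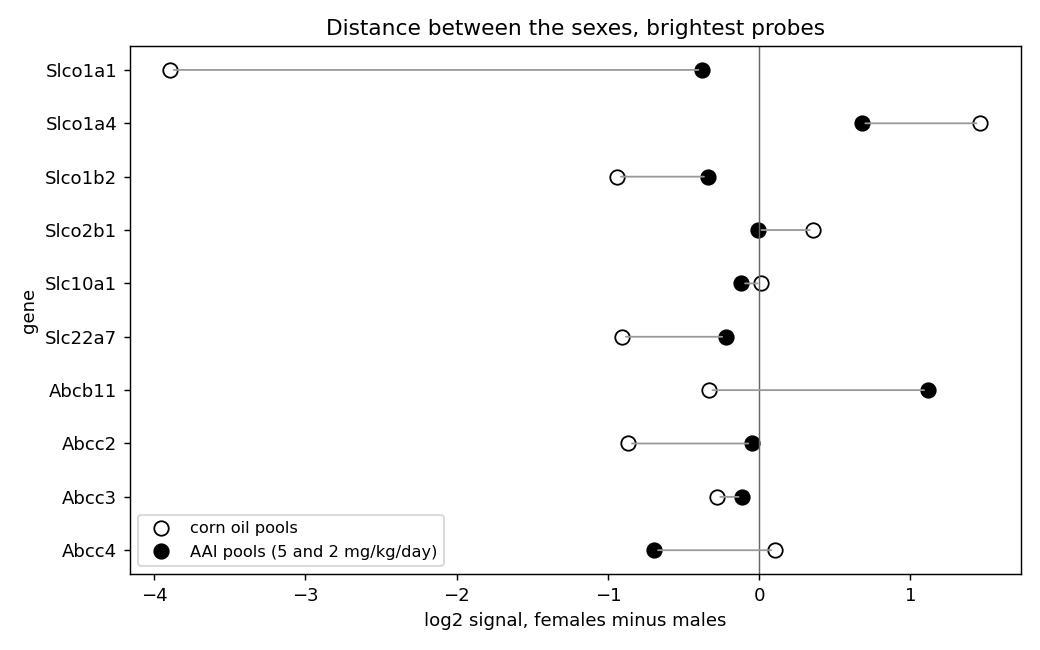
Female minus male difference in log2 signal (x axis) of the brightest probe of each transporter (y axis), with open circles for control and filled circles for AAI pools, 1 array per group. Slco1a1 moves from -3.89 to -0.38 and Abcb11 from -0.33 to 1.11, while the further Slco1a1 probe, not plotted, had -5.11 under corn oil and at least a 2.93-fold lower signal in females in the AAI pools.

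Promoter sequences were examined for the 8 members in the RefSeq promoter table (assembly GRCm38.p6), which holds 12 promoters for them, each with 250 bases before and 50 after a transcript start. Abcc3 and Slc22a7 were not in it. The 5 motifs given here, searched on both strands, were the antioxidant response element TGACNNNGC, the STAT5 site TTCNNNGAA, the nuclear receptor half-site AGGTCA, the E-box CACGTG and the dioxin response core GCGTG. The half-site AGGTCA was found in 5 of the 12 promoters (Abcb11, Abcc2, Slco1b2, Slco1a1 and 1 of the Slc10a1 promoters), against 16.3% of 32851 promoters. The STAT5 site was found in 5 (Slco1b2, Slco2b1, Slc10a1 and Abcc4), against 8.30%. The antioxidant response element was found in 3 (Abcc2 and both Abcc4 promoters), against 12.4%. The E-box was found in 1 (Abcc4), against 7.15%, and the dioxin response core in 2 (Abcb11 and Abcc4), against 32.4%. Several of the 12 promoters belong to 1 gene, so they are not independent, and a match is a string of letters and not a site shown to be bound.

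The 250 bases before the start are printed, 5′ to 3′ on the strand of the gene, for Slco1a1, which had the lowest ratio in both sexes, for Abcb11, which had opposite directions, and for Abcc4, which was higher in AAI males. Capitals mark matches to these 5 motifs.
Slco1a1, chr6:141946963-141947212, minus strand: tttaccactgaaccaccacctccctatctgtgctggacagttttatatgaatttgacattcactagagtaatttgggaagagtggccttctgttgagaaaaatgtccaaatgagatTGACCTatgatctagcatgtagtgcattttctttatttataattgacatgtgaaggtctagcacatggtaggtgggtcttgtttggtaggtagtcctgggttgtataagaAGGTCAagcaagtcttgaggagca
Abcb11, chr2:69342617-69342866, minus strand: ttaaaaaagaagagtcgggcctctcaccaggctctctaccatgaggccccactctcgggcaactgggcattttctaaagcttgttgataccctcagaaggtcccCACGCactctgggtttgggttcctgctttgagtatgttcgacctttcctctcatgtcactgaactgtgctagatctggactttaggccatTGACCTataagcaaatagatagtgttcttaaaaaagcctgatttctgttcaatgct
Abcc4, chr14:118706220-118706469, minus strand: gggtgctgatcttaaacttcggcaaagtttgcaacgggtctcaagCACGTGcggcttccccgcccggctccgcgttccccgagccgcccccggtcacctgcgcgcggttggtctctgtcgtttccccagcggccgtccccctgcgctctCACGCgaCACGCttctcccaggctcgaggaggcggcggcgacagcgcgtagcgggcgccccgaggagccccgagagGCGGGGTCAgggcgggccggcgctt
In the Slco1a1 promoter the capitals are both half-sites, beginning at positions -134 (read on the opposite strand) and -24 from the start. In that of Abcb11 they are the dioxin response core at -146 and the half-site at -56, both on the opposite strand. In that of Abcc4 they are the E-box at -205, the dioxin response core at -101 and -94 and the antioxidant response element at -25, and the STAT5 match begins after the start. For Slco1a4, no match to any of these 5 motifs was found in its promoter.

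Of 35 other transporter genes from a list written for this description, 0 were at least 2-fold lower and 1 higher with AAI in females, and 4 were lower and 2 higher in males. By brightest probes, all 35 were above background on every array. A further probe of each of Slco1a5, Slco1a6, Slco2a1, Slco3a1, Slc51a, Abcb1b, Abcc5 and Abcc10 was well above background on no array. The brightest probes of Slco1a5, Slco1a6 and Slc51a were dim as well, with log2 signals from 4.68 to 6.80. The median log2 ratio of the 35 genes was 0.25 in females and -0.21 in males. In females, Slc51b, a subunit of the basolateral organic solute transporter of bile acids, was higher, with 9.04 and 10.54 (in males 7.37 and 7.81). In males, Slc22a27, of the same transporter family as Slc22a7, had a log2 signal of 5.64 with corn oil and 9.50 with AAI, against 11.80 and 12.07 in females. Its further probe gave a log2 ratio of 4.12 in males and 0.56 in females. The multidrug exporter Abcb1b was 6.95 and 9.61 in males, and 6.29 and 6.68 in females, by its brightest probe. Its further probe was not well above background on any array (3.87 in AAI males), so the difference rests on the brightest probe. The higher Abcb1b signal in AAI males went along with the skeletal muscle, adrenal and fat markers given above, whose part in it was not tested. The same holds for the other transporters with a higher signal in AAI males.

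The 4 transporters at least 2-fold lower in males were Slc22a30 (log2 ratio -1.58), Slc22a28 (-1.15), the canalicular xenobiotic pump Abcg2 (-1.06) and the cholesterol exporter Abca1 (-1.02). Abcg2 and Abca1 were close to this limit. In females the same 4 genes had positive ratios of 0.51, 0.58, 0.82 and 0.25 by their brightest probes. Their signs were then those of Abcb11 and Abcc2, positive in females and negative in males. The further probes of Slc22a28 (0.36 and -2.15) and Abca1 (0.42 and -0.90) had the same signs, and those of Slc22a30 gave -0.07 and 0.22 in females and -1.21 and -2.14 in males. Slc22a27, Slc22a28 and Slc22a30 are neighbors of similar sequence on chromosome 19, and signal shared between them was not measured.

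**Figure D4:**
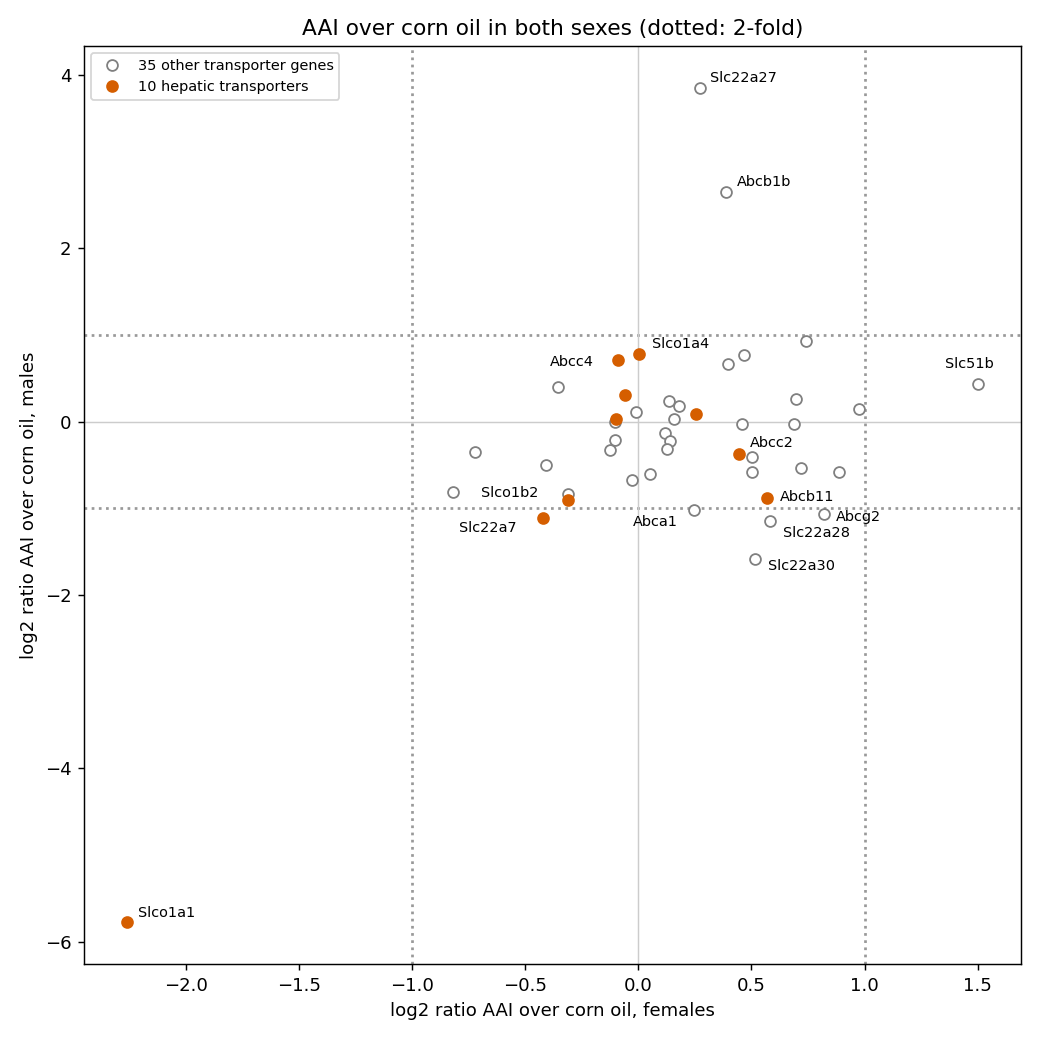
Log2 ratio of AAI over corn oil in females (x axis) and males (y axis) for the 10 hepatic transporters (filled) and 35 other transporter genes (open), brightest probe each, with dotted lines at 2-fold. Slco1a1, at -2.26 and -5.78, lies apart at the lower left, Slc22a27 (3.85 in males) and Abcb1b (2.66) at the top, and Abcb11 and Abcc2 in the lower right quadrant.

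Of 12 regulators known to act on these transporter genes, 1 was at least 2-fold lower in females and 0 in males, and 0 were higher in either, by brightest probes. Nr1i2, the pregnane X receptor, was 9.98 with corn oil and 8.76 with AAI in females, a log2 ratio of -1.22, and -0.28 in males. Bcl6, a transcriptional repressor, had ratios of -0.98 and -0.76 by its brightest probe. Its further probe was below background in both AAI pools, so that its signal was at least 2.18-fold lower in females and at least 2.05-fold lower in males. Nr1h4, the bile acid receptor that activates Abcb11, had ratios of -0.04 in females and -0.31 in males, and -0.12 and 0.09 by a further probe. Its target Nr0b2 had 0.32 and -0.13, and Nr1i3, the constitutive androstane receptor, 0.25 and 0.38 (further probe -0.05 and 0.41). For Nr5a2, with 1 probe, the ratios were 0.23 and -0.17. Hnf4a had -0.42 and -0.38 by its brightest and -0.96 and -0.27 by its further probe, negative in both sexes by each. Ppara had -0.60 and 0.05, and -0.69 and -0.36 by its further probe, negative in females by both. The probes disagreed in sign for Stat5b in females (-0.13 and 0.39) and had -0.29 and -0.27 in males. They also disagreed in males for Nfe2l2, the gene of Nrf2, with -0.21 by the brightest and 0.88 by the further probe, against -0.61 and -0.37 in females. The same held for Ahr, with -0.66 and 0.10 in males, against 0.25 and 0.12 in females. No direction is given where probes disagreed. None of these transcripts measures the activity of its protein.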

How the data were processed

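Liver RNA was pooled from 5 mice per group, labeled with Cy3 and hybridized to 1 SurePrint G3 mouse array per group. The authors scanned the arrays and deposited, per the file headers, spot intensity values from Feature Extraction 10.5.1.1, with positions on build mm9. Processed and background-subtracted signals were equal within 1% on 93.7% of spots of the array of AAI-treated females and on 6.64% to 13.2% of the others, so a trend correction acted mainly on the latter. The authors also deposited a table of quantile normalized intensity, used as an alternative only. Here, log2 processed signals without control and outlier spots were averaged per probe and quantile normalized over the 4 arrays (Python 3.11.15, pandas 2.3.3), for the 56495 probes with a value on every array. Genes well above background on at least 1 array of a pair were examined for a 2-fold difference, with a bound where the other was below background, so that 31682 genes entered in females, 30539 in males and 30891 between the corn oil-treated sexes. With 1 array per group there was no test, and precision is limited by that number. No member spot was saturated, marked as an outlier or replaced by its background value. The 9 alternatives were scaling to the 75th percentile, normexp correction (limma 3.58.1, offset 50), no trend correction, the authors' values, the mean over probes, no dim-probe filter, a filter on both arrays, leaving out replaced spots, and a 3-fold limit. The ranges of log2 ratios leave out the 3-fold limit and include dropping the Slc10a1 probe with repeat letters. Genes were named by a rule: all members, other transporters past 2-fold, the regulators (1 of them and a motif are not reported here), and the nearest profiles to Slco1a1. Profiles nearest to the member highest in both sexes are left out, since the choice of that member depended on the probes. Members and lists were chosen with earlier results of these data known.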

Additional observations from a re-analysis of the deposited data

Results flagged for a closer look

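Abcb11 and Abcc2 stood out because AAI-treated and corn oil-treated pools differed in opposite directions in the 2 sexes, each beyond the SD between probes of 1 gene. The log2 ratio of Abcb11 was 0.57 in females and -0.88 in males, and that of Abcc2 was 0.45 and -0.37. The same pattern of signs beyond this SD was seen in 7 of 35 other transporter genes and in 5.45% of 28234 genes. The difference between the sexes was not tested, since each group is 1 array, and sex and dose cannot be told apart.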

How the results depend on the processing

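No paired analysis was possible because each group has 1 array and no replicate numbers pair the samples. No member or count that was called reversed its direction under any alternative. With a 3-fold limit, 1 member was lower in males, 0 members were higher in females than in males under corn oil, and 0 other transporters in females and 2 in males were past the limit. Scaling to the 75th percentile gave 3 other transporters past 2-fold in females. The other counts and medians, 100 in all, stayed within 1.5 times the reported count or within the SD between probes. For the medians this limit is wide, and some choices could not change some of these values. Scaling to the 75th percentile moved the male median from -0.17 to -0.06, and the normexp correction moved it to -0.24. The median between the corn oil-treated sexes went from -0.31 to -0.10 with that scaling. In males, that scaling left 4 other transporters past 2-fold and the mean over probes 5, against 6. All of these were counted as within the limit. Among single member ratios, 12 values moved by at least the SD between probes and 258 did not. Those that moved were of Slco1a1 in all comparisons, Abcc3 in females and Slco2b1 in males. Between the corn oil-treated sexes, Slco1b2, Slco2b1 and Abcb11 moved as well. Signs that changed were those of small ratios: Slco1a4, Slco2b1, Slc10a1 and Abcc3 in females, Slc10a1 in males, and Slco2b1 and Slc10a1 between the corn oil-treated sexes. Leaving out the repeat-like probe of Slc10a1, an alternative chosen after seeing the data, changed no count of members. Over all genes, the normexp correction left 343 lower and 139 higher in females against 978 and 434, and 643 and 554 in males against 1402 and 1071, and between the sexes under corn oil 475 and 225 against 1184 and 574. Without the dim-probe filter these counts were 1433 and 1078, 2240 and 1793, and 1823 and 1253. With the 3-fold limit they were 225 and 127, 510 and 471, and 378 and 155. Scaling to the 75th percentile gave 54.5% lower calls among those in females, against 69.3%. The array of 1 pool per group limits all values, and differences between mice were not measured.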
